A study of Anguilla anguilla with 24 samples.

Results

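The contigs described here are the solute carriers of the European eel (Anguilla anguilla) outside the families of plasma membrane and vesicle metal carriers and of the carriers of vesicular glutamate and GABA, measured in liver and brain. They were chosen by label: after a copy suffix was removed (slc1a4.1.2 is copy 1 of 2 of slc1a4), every contig labelled slc or slco with a family number, a letter and a member number was kept. Families 11, 17, 30, 31, 32, 39 and 40, which hold metal carriers and the carriers that load glutamate or GABA into synaptic vesicles, were left out with their 19 contigs. The mitochondrial iron carriers slc25a28 and slc25a37, 6 contigs, belong to a family that was kept. This gave 182 of 50640 contigs, under 129 labels in 36 families. The rule used names only and no measured value. The label slc9a3r1 meets the rule but names a scaffold protein that binds carriers, and it is reported as such.

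RNA was sequenced from 12 eels that each gave a liver and a brain library. The 4 groups were livers of 6 gold-fed eels (gold nanoparticles in the diet over 21 days), livers of 6 control eels without gold, brains of the same 6 gold-fed eels, and brains of the same 6 control eels. The sources used here give no strain, age or sex of the eels and do not say whether eels shared tanks.

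Solute carriers are membrane proteins that move small molecules down a gradient or by coupling their movement to that of an ion. In vertebrate liver they bring in sugars, amino acids, bile salts, fatty acids and drugs, and mitochondrial members of the slc25 family pass metabolites between cytosol and mitochondrial matrix. In vertebrate brain they clear transmitters from the extracellular space, carry glutamine and glucose between glia, vessels and neurons, and set the chloride and bicarbonate gradients of neurons.

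Libraries held 50.3 to 87.6 M counted reads in gold-fed liver, 59.4 to 89.8 M in control liver, 79.3 to 116 M in gold-fed brain and 66.0 to 85.3 M in control brain. The tissue labels held in both sets of eels, with 40 of 40 hepatocyte marker contigs higher in liver and 28 of 28 neuron marker contigs higher in brain. The hepatocyte list includes thrb, matched in any letter case to an entry name of prothrombin, which may be another gene. Values below are counts per M reads (CPM) scaled by TMM factors and not corrected for contig length, so they compare libraries and not genes. The scaling weighs on every comparison between the tissues, since TMM factors were 0.447 to 0.549 in gold-fed liver, 0.424 to 0.567 in control liver, 1.99 to 2.13 in gold-fed brain and 2.05 to 2.17 in control brain. Scaling by library totals instead moved the median log2 fold change of all contigs, liver over brain, by -2.004 in gold-fed eels and -2.15 in control eels. In bulk tissue, fewer cells of a type and less RNA per cell cannot be told apart.

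Solute carrier reads made up 0.36% to 0.419% of a gold-fed liver library (median 0.3835%), against 0.288% to 0.382% of a control liver library (median 0.3415%). They made up 0.58% to 0.654% of a gold-fed brain library (median 0.627%) and 0.594% to 0.647% of a control brain library (median 0.6225%). The liver groups overlap, and so do the brain groups. A mean of 1 CPM or more was reached by 138 contigs in gold-fed liver, 135 in control liver, 152 in gold-fed brain and 154 in control brain. Reads were concentrated: the 5 contigs with most reads took 47.9% of carrier reads in gold-fed liver and 46.9% in control liver, in both cases slc38a4, slc37a4.2.2, slc6a6.1.2, slc16a10 and slc2a2. In brain the leading 5 took 35.2% in gold-fed and 34.4% in control eels. They included slc38a3.2.2, slc6a11, slc6a6.2.2 and a contig of slc12a5, which was copy 1 in gold-fed and copy 2 in control brain. Copy 1 had 233 CPM in the brain of gold-fed eel 7 and 123 to 134 CPM in the other gold-fed brains. Which copy led in gold-fed brain thus turns on that library.

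Most solute carriers differed between the tissues. In gold-fed eels 84 contigs were higher in liver and 77 higher in brain, against 33.3% and 39.7% of all 49776 contigs tested, and in control eels 84 were higher in liver and 76 higher in brain, against 34.9% and 40.1% of all 49741 tested (edgeR's quasi-likelihood test, Benjamini-Hochberg adjusted over all contigs, threshold 0.05). In both sets of eels 81 contigs, 44.5% of the carriers, were higher in liver, against 30.8% of all contigs, and 73 contigs, 40.1% of the carriers, were higher in brain, against 36.7%. The other 28 were without a call in at least 1 set, and none was called in opposite directions. The share called higher in brain was thus near that of all contigs, and the size of the differences was larger: the median absolute log2 fold change was 2.77 for carriers and 1.46 for all contigs in gold-fed eels, and 2.80 for carriers and 1.52 for all contigs in control eels.

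The 73 brain-higher contigs were all also called when libraries were scaled by their totals, and 39 of the 81 liver-higher contigs were. Library totals shift values toward brain, so a brain call could hardly be lost and this was a test of the liver calls only. Under both scalings 10.1% of all contigs were higher in liver. In brain 36.7% were higher, the same 18146 contigs as with TMM alone. The 39 liver-higher contigs had log2 fold changes of 2.86 to 10.35 in control eels, and the other 42 had 0.42 to 2.93. Of those 42, 19 were called higher in brain with library totals in both sets of eels. The calls of these 42 in liver thus rest on the scaling.

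**Figure D1:**
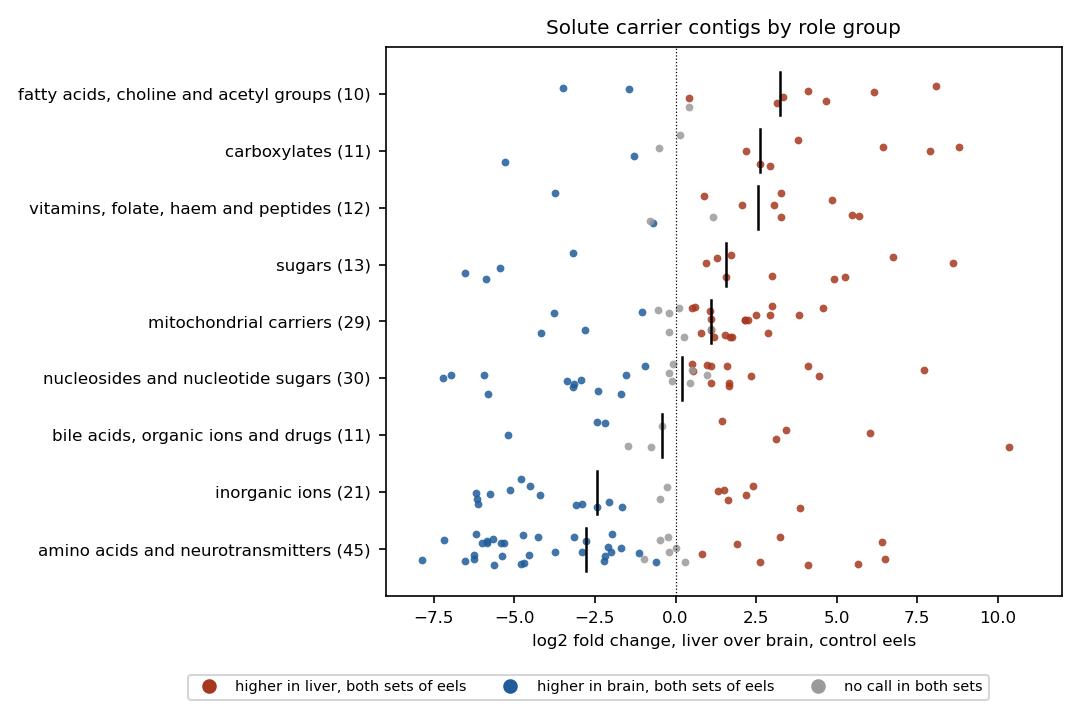
Log2 fold change of liver over brain in control eels (x axis, TMM scaling) for the 182 solute carrier contigs, one point each, by role group (rows, number of contigs in brackets). Colour gives the call in both sets of eels and black bars are medians; amino acid and neurotransmitter carriers and ion carriers lie mostly on the brain side, and fatty acid, carboxylate and vitamin carriers mostly on the liver side.

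**Figure D2:**
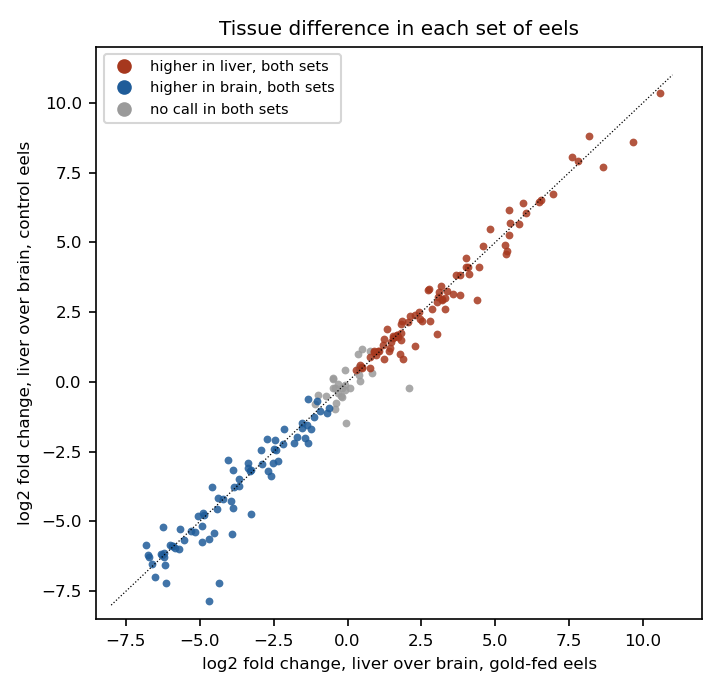
Log2 fold change of liver over brain in gold-fed eels (x axis) against control eels (y axis), one point per contig, with the line of equal values dotted. Of 182 contigs, 177 had the same sign in both sets, as did 93.2% of all contigs; the sets hold different eels.

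The tissue side differed by role. In both sets of eels 30.8% of all contigs were higher in liver and 36.7% higher in brain. Those shares stand beside each role and family count below. Of 45 contigs of amino acid and neurotransmitter carriers, 8 were higher in liver, 31 higher in brain and 6 without a call in both sets. Of 21 contigs in the inorganic ion group, which by its label holds the scaffold slc9a3r1, 6 were higher in liver, slc9a3r1 among them, and 13 higher in brain. The balance lay on the liver side for mitochondrial carriers (19 of 29 liver, 4 brain), the sugar group (9 of 13 liver, 4 brain), carriers of vitamins, folate, haem and peptides (8 of 12 liver, 2 brain), carboxylate carriers (7 of 11 liver, 2 brain) and carriers of fatty acids, choline and acetyl groups (7 of 10 liver, 2 brain). Carriers of nucleosides and nucleotide sugars were even, with 12 of 30 on each side, and those of bile acids, organic ions and drugs had 5 of 11 on the liver side and 3 on the brain side. The counts of these groups are not far from the shares of all contigs and do not set them apart. The sugar group holds by family 1 liver-higher contig of another substrate, slc5a6a, a carrier of biotin and pantothenate. The nucleoside and nucleotide sugar group holds by family all slc35 members, including little studied or orphan ones such as slc35g2 and slc35f4. Under both scalings every brain call held, which the shift of library totals toward brain made likely beforehand. Liver calls that held were 5 for amino acid and neurotransmitter carriers, 1 for inorganic ions, 5 for mitochondrial carriers and 5 for sugars. They were 6 for vitamins, folate, haem and peptides, 4 for carboxylates and 6 for fatty acids, choline and acetyl groups. They were 3 for nucleosides and nucleotide sugars and 4 for bile acids, organic ions and drugs. The even split of nucleoside and nucleotide sugar carriers and the liver balances of mitochondrial carriers and the sugar group thus rest on TMM scaling. Under both scalings mitochondrial carriers and the sugar group each had 5 liver and 4 brain contigs. The liver balance of bile acid, organic ion and drug carriers shrank to 4 and 3.

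Transmitter uptake carriers of the slc6 family were brain transcripts. The GABA carrier slc6a11 (GAT3, a glial carrier in mammals) had 1.54 to 4.45 CPM (median 1.86) in control livers and 162 to 189 CPM (median 171) in control brains. Every brain lay far above every liver. Its log2 fold change was -6.71 in gold-fed and -6.26 ± 0.29 (SE) in control eels, with an adjusted p of 1.38e-10 in control eels. Also on the brain side were both copies of slc6a15, which carries branched-chain amino acids and proline, both of slc6a17, a vesicular amino acid carrier, both of slc6a5, the neuronal glycine carrier, and slc6a3, the dopamine carrier, slc6a8, the creatine carrier, slc6a20, a proline carrier, and slc6a6.2.2, a taurine carrier. In all, 12 of 14 slc6 contigs were higher in brain, 1 was higher in liver and slc6a2, the noradrenaline carrier, was without a call at 0.834 to 3.05 CPM (median 1.29) in control livers and 1.08 to 2.23 CPM (median 1.82) in control brains.

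Among these, slc6a15.1.2 had the largest brain-side difference in control eels of the contigs with at least 5 CPM in brain. It had 0 to 0.105 CPM (median 0.0685) in control livers and 5.39 to 17.2 CPM (median 8.45) in control brains, a log2 fold change of -6.16 in gold-fed and -7.19 in control eels. Its control livers held 0 to 4 reads, so the size of its difference rests on low counts. Its second copy, slc6a15.2.2, had 0.412 to 0.941 CPM (median 0.599) in control livers and 31.3 to 57.9 CPM (median 47.8) in control brains, with log2 fold changes of -6.27 in gold-fed and -6.20 in control eels. The monoamine vesicle carrier slc18a2 (VMAT2), which packs dopamine, noradrenaline and serotonin, was low in both tissues, with 0 to 0.397 CPM (median 0.117) in control livers and 1.90 to 2.78 CPM (median 2.17) in control brains. Its tissue groups did not overlap, and the log2 fold change was -3.68 in gold-fed and -3.73 in control eels.

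In the slc7 family, 10 of 13 contigs were higher in brain and 2 higher in liver. All 4 contigs of slc7a14, a lysosomal member of the cationic amino acid group, were on the brain side, with log2 fold changes from -6.26 to -5.66 in control eels. The large neutral amino acid carrier slc7a5 (LAT1, which carries leucine, tryptophan and thyroid hormone at the blood-brain barrier) had 1.43 to 2.34 CPM (median 1.77) in control livers and 63.4 to 88.5 CPM (median 77.7) in control brains. Its partner chain slc3a2 (4F2hc) had 11.5 to 38.2 CPM (median 23.3) in control livers and 91.5 to 109 CPM (median 98.3) in control brains. Both were higher in brain without overlap, with log2 fold changes of -5.40 for slc7a5 and -2.08 for slc3a2 in control eels. On the liver side were slc7a2, a carrier of arginine and lysine (log2 fold change 4.11), and slc7a9, a cystine and basic amino acid exchanger (log2 fold change 2.61, not called with library totals).

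The 8 amino acid carrier contigs higher in liver were slc38a4, slc38a6, slc38a3.1.2, slc38a10.3.6, slc1a4.1.2, slc6a6.1.2, slc7a2 and slc7a9. The carrier slc38a4 (SNAT4, a liver carrier of neutral amino acids in mammals) had 705 to 1194 CPM (median 832) in control livers and 15.4 to 18.9 CPM (median 18.02) in control brains, a log2 fold change of 5.80 in gold-fed and 5.66 ± 0.18 (SE) in control eels. The taurine carrier contig slc6a6.1.2 had 789 to 985 CPM (median 869) in control livers and 86.2 to 102 CPM (median 93.5) in control brains. No liver overlapped a brain for either, and the log2 fold change of slc6a6.1.2 was 3.11 in gold-fed and 3.23 in control eels.

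Glucose and fructose carriers separated by tissue. The carrier slc2a2 (GLUT2, the low-affinity glucose carrier of hepatocytes) had 372 to 607 CPM (median 447) in control livers and 3.86 to 5.10 CPM (median 4.46) in control brains, with a log2 fold change of 6.95 in gold-fed and 6.74 ± 0.19 (SE) in control eels. The fructose carrier slc2a5 (GLUT5) had 55.6 to 96.4 CPM (median 87.1) in control livers and 0.107 to 0.429 CPM (median 0.183) in control brains, and slc2a8, slc2a9 (a urate carrier in mammals) and slc2a12 were also higher in liver (slc2a12 by TMM scaling only). On the brain side were slc2a1b (GLUT1, the glucose carrier of brain vessels in mammals), with 0.935 to 1.57 CPM (median 1.39) in control livers and 7.95 to 14.3 CPM (median 12.6) in control brains, and slc2a13 (a proton-coupled inositol carrier). The tissues did not overlap for any of the 3 contigs given with values. Among other sugar carriers, slc45a1, a proton-coupled glucose carrier known from mammalian brain, had 0.0877 to 0.453 CPM (median 0.268) in control livers and 24.3 to 25.3 CPM (median 24.9) in control brains, a log2 fold change of -6.18 in gold-fed and -6.55 in control eels.

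Organic cation, carboxylate and nucleoside carriers included several of the largest tissue differences on the liver side. The organic cation carrier slc22a2 (OCT2 of mammals) had 263 to 440.4 CPM (median 338) in control livers and 0.154 to 0.355 CPM (median 0.273) in control brains. With a log2 fold change of 10.59 ± 0.33 in gold-fed and 10.35 ± 0.29 (SE) in control eels, and an adjusted p of 1.91e-12 in control eels, it had the largest tissue difference of the 182 contigs in both sets. The carnitine and organic cation carrier slc22a16 had 114 to 319.5 CPM (median 245) in control livers and 2.96 to 4.04 CPM (median 3.48) in control brains. Tissues did not overlap for either. The organic anion carriers were few: slco3a1 was higher in brain, with 2.94 to 4.33 CPM (median 3.70) in control livers and 18.1 to 21.6 CPM (median 19.7) in control brains. The prostaglandin carrier slco2a1 was called higher in brain in control eels alone (log2 fold change -0.05 in gold-fed and -1.47 in control eels). The liver of gold-fed eel 11 held 959 reads of slco2a1, and the other gold-fed livers held 67 to 291. No value without that eel is given here, so the missing call in gold-fed eels may rest on 1 library.

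The aromatic amino acid carrier slc16a10 (TAT1), placed with the carboxylate carriers by its family, had 434 to 673 CPM (median 524) in control livers and 5.25 to 7.84 CPM (median 5.95) in control brains. The monocarboxylate carrier slc16a7 (MCT2, a lactate and pyruvate carrier) had 27.4 to 50.7 CPM (median 39.7) in control livers and 0.0665 to 0.113 CPM (median 0.0844) in control brains. The lactate exporter slc16a3 (MCT4) went the other way, with 0.996 to 1.67 CPM (median 1.48) in control livers and 47.1 to 60.9 CPM (median 56.6) in control brains. No liver overlapped a brain for these contigs given by library. The sodium-dicarboxylate carrier slc13a2, which takes up succinate and citrate, had 13.1 to 44.97 CPM (median 23.5) in control livers and 0.0113 to 0.376 CPM (median 0.0769) in control brains. The concentrative nucleoside carrier slc28a3 (CNT3) had 19.1 to 81.5 CPM (median 38.5) in control livers and 0.124 to 0.382 CPM (median 0.168) in control brains. Log2 fold changes were 7.80 and 8.64 in gold-fed eels for slc13a2 and slc28a3, and 7.91 and 7.71 in control eels.

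All 3 contigs of slc27a2, a very long-chain acyl-CoA synthetase and fatty acid carrier of peroxisomes and liver, were higher in liver, by unequal amounts. Copy 3 had 43.99 to 65.01 CPM (median 55.8) in control livers and 0.147 to 0.294 CPM (median 0.199) in control brains, copy 2 had 64.7 to 170.4 CPM (median 96.2) in control livers and 0.94 to 2.10 CPM (median 1.45) in control brains, and copy 1 had 64.7 to 189.5 CPM (median 154) in control livers and 8.84 to 18.9 CPM (median 13.9) in control brains. The log2 fold changes in control eels were 8.07 ± 0.23, 6.16 ± 0.30 and 3.34 ± 0.29 (SE) for copies 3, 2 and 1, and no copy overlapped between the tissues. The fatty acid carriers slc27a1 and slc27a6 were also on the liver side, and slc27a4 was on the brain side with a log2 fold change of -3.68 in gold-fed and -3.48 in control eels. Of the choline carriers, slc44a2 was higher in liver and slc44a1 higher in brain, where it had 13.3 to 26.4 CPM (median 19.7) in control eels against 4.55 to 9.32 CPM (median 7.32) in their livers.

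Mitochondrial carriers were mostly higher in liver, with a median log2 fold change of 1.09 over the 29 slc25 contigs in control eels: 19 were called so, and 5 of the 19 held under both scalings. Those 5 were slc25a1b, both copies of slc25a11 and both copies of slc25a27. The citrate carrier slc25a1b, which exports citrate for fatty acid and sterol synthesis, had 124 to 198 CPM (median 162) in control livers and 5.49 to 8.57 CPM (median 6.82) in control brains, a log2 fold change of 5.36 in gold-fed and 4.58 ± 0.17 (SE) in control eels. The oxoglutarate carrier slc25a11 had log2 fold changes of 3.85 (copy 1) and 2.99 (copy 2) in control eels. The label slc25a27 (UCP4, known from brain in mammals) was higher in liver, at 2.92 and 2.86. The carnitine-acylcarnitine carrier slc25a20 (labelled slc25a20.2.S) had 2.51, and did not keep its call with library totals. On the brain side were slc25a18, a glutamate carrier (-4.18), slc25a25.2.2, an ATP-Mg/phosphate carrier (-3.76), slc25a53 (-2.82) and slc25a51, the NAD carrier (-1.05). The glutathione carrier contig slc25a39.1.2 had 28.2 to 61.3 CPM (median 39.7) in gold-fed livers and 14.2 to 54.98 CPM (median 20.97) in gold-fed brains, and was called higher in liver in control eels only. The brain of gold-fed eel 10 held the highest of these brain values, and without that eel, or by DESeq2 with it, the contig was called in gold-fed eels too, at a log2 fold change of 1.03 without it and 0.76 with it by edgeR. With library totals slc25a39.1.2 had -1.25 in gold-fed and -1.07 in control eels, so its liver side rests on TMM scaling.

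Ion carriers of neurons led the brain side among inorganic ions. The potassium-chloride carrier slc12a5 (KCC2, which keeps neuronal chloride low) had 1.03 to 2.22 CPM (median 1.79) in control livers and 105 to 147 CPM (median 124) in control brains for copy 1, and 1.08 to 2.61 CPM (median 1.89) in control livers and 107 to 156 CPM (median 134) in control brains for copy 2. The sodium-bicarbonate carrier slc4a10 had 0.279 to 0.645 CPM (median 0.352) in control livers and 22.3 to 40.2 CPM (median 27.6) in control brains. For all 3 the tissues were far apart, with log2 fold changes of -6.16, -6.12 and -6.19 in control eels. In the slc4 family 6 of 7 contigs were higher in brain, among them all 3 labelled slc4a7 or SLC4A7, a second sodium-bicarbonate carrier, and in the slc8 family the 3 contigs of the plasma membrane sodium-calcium exchangers slc8a1 and slc8a3 were higher in brain, while slc8b1, the mitochondrial one, was higher in liver (log2 fold change 2.40 in control eels, not called with library totals). The phosphate carriers differed: slc20a1 was higher in liver with a log2 fold change of 3.86 in control eels, and slc20a2 was without a call at -0.28. The scaffold slc9a3r1 (NHERF1) had 96.01 to 144 CPM (median 124) in control livers and 23.7 to 30.8 CPM (median 27.2) in control brains, with a log2 fold change of 2.18 in control eels that was 0.02 with library totals.

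The slc35 family holds carriers of nucleotide sugars, which feed glycosylation in the Golgi and endoplasmic reticulum. It also holds little studied or orphan members, such as slc35g2 and slc35f4, which were higher in brain. By TMM scaling 10 of 26 slc35 contigs lay on each side, not far from the 30.8% of all contigs in liver and 36.7% in brain. Of these slc35 calls, 2 of the 10 in liver held under both scalings, as did all 10 in brain, which library totals could hardly remove. Both contigs of slc35d2 were higher in liver, with log2 fold changes of 4.12 and 4.45 in control eels. Both contigs of slc35g2, a little studied member, were higher in brain: copy 1 had 0.0586 to 0.453 CPM (median 0.118) in control livers and 18.8 to 25.7 CPM (median 23.5) in control brains, and copy 2 had 0.175 to 0.488 CPM (median 0.339) and 15.9 to 21.6 CPM (median 17.6) in the same tissues. The nucleoside family member slc29a4 (PMAT, which takes up monoamines) had 2 brain-higher contigs of unequal tissue difference, -0.93 for copy 1 and -5.95 for copy 2 in control eels. Among vitamin carriers, all 3 slc19 contigs (folate and thiamine), both slc46a1 contigs (folate) and both slc52 contigs (riboflavin) were higher in liver, slc52a2 by TMM scaling only. The folate carrier contig slc19a1.2.2 had 60.2 to 70.3 CPM (median 66.7) in control livers and 6.69 to 9.52 CPM (median 8.08) in control brains, without overlap.

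Of the 37 labels carried by more than 1 contig, 9 had every contig higher in liver, 11 had every contig higher in brain, 10 had at least 1 contig without a call, and 7 had contigs called in opposite directions in both sets of eels. The same count over all other labels with several contigs was not made, so these numbers have no share beside them and do not set carriers apart. The files do not say whether contigs of a label are duplicate genes, alleles or parts of a transcript. The neutral amino acid carrier slc1a4 (ASCT1) had copies whose tissue differences lay farthest apart, at 6.41 for copy 1 and -5.64 for copy 2 in control eels. Its copy 1 had 74.7 to 205 CPM (median 109) in control livers and 0.441 to 2.86 CPM (median 1.34) in control brains, and its copy 2 had 0.28 to 0.746 CPM (median 0.52) in control livers and 20.7 to 32.8 CPM (median 27.5) in control brains. Neither overlapped between tissues, and copy 1 made up 98.1% ± 2.04 of the label's CPM in gold-fed livers, 99.5% ± 0.266 in control livers, 4.54% ± 2.41 in gold-fed brains and 4.89% ± 2.77 in control brains (SD, n = 6 each). Contig lengths were not used, so these shares compare tissues and not copies.

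The glutamine carrier slc38a3 (SNAT3, found in hepatocytes and astrocytes of mammals) had the same kind of split. Copy 1 had 195 to 322 CPM (median 275) in control livers and 1.57 to 4.52 CPM (median 3.01) in control brains, and copy 2 had 4.54 to 53.4 CPM (median 15.4) in control livers and 168 to 204 CPM (median 185) in control brains. Summed over both copies, the label was higher in liver by 0.86 in gold-fed and 0.65 in control eels on the log2 scale with TMM scaling, which is less than the shift between the scalings, so the direction of the sum rests on the scaling. The endoplasmic glucose-6-phosphate carrier slc37a4, which works with glucose-6-phosphatase in glucose release, had a liver contig and a contig near 0 in liver: copy 2 had 428 to 709 CPM (median 619) in control livers and 14.5 to 17.9 CPM (median 16.2) in control brains, and copy 1 had 0.174 to 0.477 CPM (median 0.249) in control livers and 15.1 to 20.9 CPM (median 16.8) in control brains. Copy 1 made up 51.2% ± 5.40 of the label's CPM in gold-fed and 51.5% ± 3.78 in control brains (SD, n = 6 each). In gold-fed and control livers its mean share was 0.036% and 0.047%. Without contig lengths these shares compare tissues and not the 2 copies. Taurine carrier copies overlapped more in use: slc6a6.2.2 had 70.9 to 119.6 CPM (median 78.3) in control livers and 119 to 149.7 CPM (median 134) in control brains, with 1 liver slightly above the lowest brain. The haem carrier slc48a1 had copy 1 on the liver side (2.06) and copy 2 on the brain side (-3.75), and of 4 contigs of slc35d1, a carrier of UDP-sugars, 3 were on the brain side and copy 2 on the liver side. Of 6 contigs of slc38a10, 2 were higher in brain, copy 3 was higher in liver (0.83) and the other 3 were without a call. The liver calls of slc48a1.1.2, slc35d1.2.4 and the liver-higher contig of slc38a10 did not hold with library totals, so that the split of those labels rests on the scaling.

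**Figure D3:**
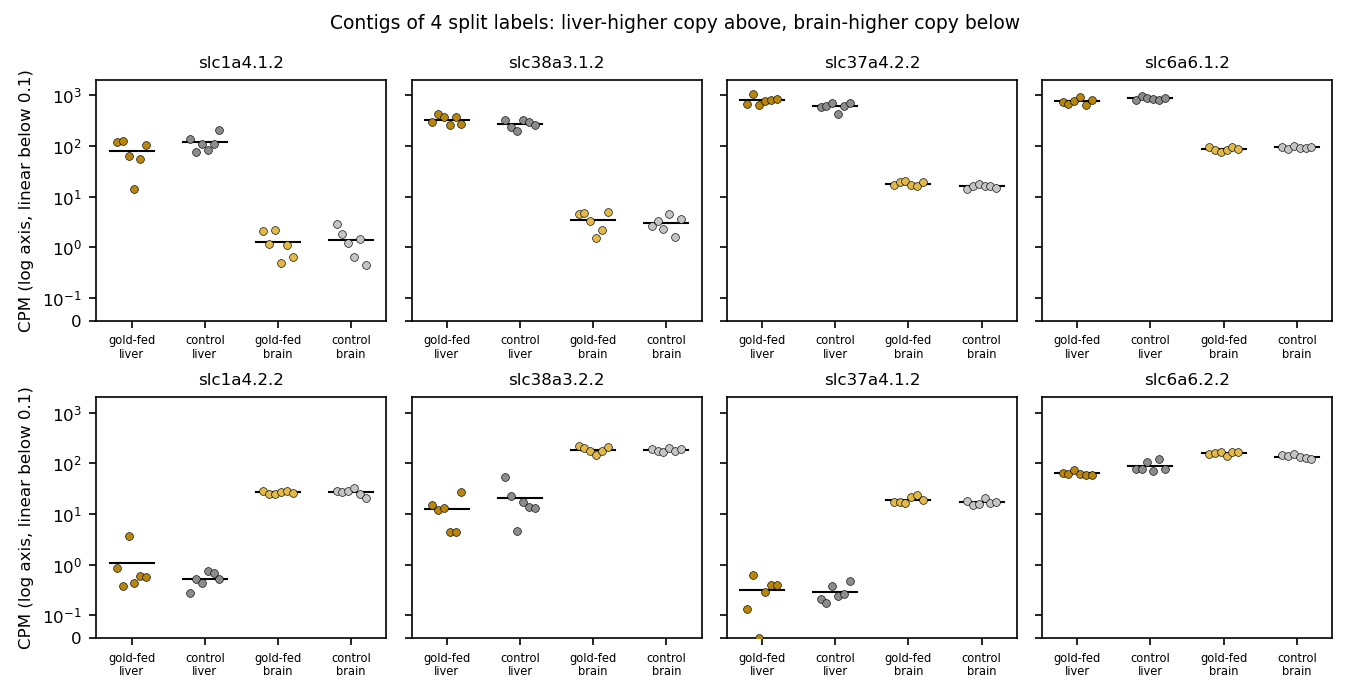
CPM by library (y axis, logarithmic above 0.1) of both contigs of slc1a4, slc38a3, slc37a4 and slc6a6 in gold-fed liver, control liver, gold-fed brain and control brain (6 eels each); lines are group means. The upper contig of each pair is higher in liver and the lower one higher in brain in both sets of eels.

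Spread between eels was larger in liver than in brain. The median coefficient of variation of the carriers was 28.1% in gold-fed livers, 27.5% in control livers, 15.3% in gold-fed brains and 15.1% in control brains, against 30.9%, 30.8%, 18.96% and 17.8% over all contigs in the same order. Carriers and contigs with a mean below 1 CPM in the group were left out of these medians. The most variable contigs of control liver with at least 5 CPM were slc27a6, slc16a6.2.2, slc38a3.2.2, slc25a11.1.2 and slc28a3. The fatty acid carrier slc27a6 had 28.6 to 395 CPM (median 155) in gold-fed livers and 20.3 to 339 CPM (median 43.3) in control livers, with control eel 3 standing alone at the top of its group. The contig slc16a6.2.2, whose zebrafish counterpart exports ketone bodies from liver, had 2.42 to 126 CPM (median 40.8) in gold-fed livers and 7.49 to 84.8 CPM (median 23.7) in control livers. The groups overlap widely for both. In control brain the most variable were slc6a15.1.2, slc8a1.1.2, slc27a2.1.3, slc12a4 and slc6a5.1.2. The potassium-chloride carrier slc12a4 had 5.16 to 9.36 CPM (median 5.70) in control brains, where eel 3 was highest, and the same brain had 403.9 summed CPM of the 3 choroid plexus and ependyma contigs, against 14.5 to 18.96 in the other control brains. The part of that tissue in the slc12a4 value was not tested.

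Gold feeding was compared with control within each tissue. In liver 166 of the 182 carriers passed the filter on low counts, and 0 were called (edgeR's quasi-likelihood test, smallest adjusted p 0.288), as were 0.0% of all 41793 contigs tested. At an unadjusted p under 0.05, 11 carriers were higher and 3 lower in gold-fed livers, against 4.41% and 4.0% of all contigs. Of the carriers, 60.2% had a log2 fold change above 0 and the median was 0.07, against 52.1% and 0.02 for all contigs. limma-voom called 0 carriers, DESeq2 called 1 carrier in liver, slc25a1b, where it called 0.692% of all contigs, and an edgeR fit of all 24 libraries also called slc25a1b alone (0.454% of all contigs).

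The citrate carrier slc25a1b had 230.0 to 297 CPM (median 251) in gold-fed livers and 124 to 198 CPM (median 162) in control livers. Every gold-fed liver lay above every control liver. Groups without overlap, in either direction, were found for 1 carrier and for 0.486% of all contigs tested in liver. Its mean was 259.7 ± 25.04 CPM in gold-fed and 161 ± 25.05 CPM in control livers (SD, n = 6 each), a log2 fold change of 0.71 ± 0.15 (SE), with an adjusted p of 0.288 by edgeR, 0.00125 by DESeq2 and 0.0236 in the fit of all 24 libraries. With each library left out in turn the log2 fold change was 0.64 to 0.77 and the adjusted p by edgeR 0.266 to 0.516. In brain the same contig had 4.45 to 6.94 CPM (median 6.56) in gold-fed and 5.49 to 8.57 CPM (median 6.82) in control eels, and the groups overlap.

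The other contigs of smallest p that were higher in gold-fed liver did not pass the test and overlap between groups. The ATP-Mg/phosphate carrier contig slc25a25.1.2 had 1.13 to 18.3 CPM (median 8.60) in gold-fed and 0.383 to 4.87 CPM (median 2.17) in control livers, a log2 fold change of 2.18 ± 0.67 (SE, adjusted p 0.444), with gold-fed eels 8 and 11 highest and gold-fed eels 7 and 9 within the control range. The mitochondrial iron carrier slc25a37 (mitoferrin) had 0.665 to 1.14 CPM (median 0.847) in gold-fed and 0.209 to 0.715 CPM (median 0.41) in control livers. The sugar carrier slc45a3 had 2.62 to 3.72 CPM (median 3.01) in gold-fed and 0.976 to 3.32 CPM (median 1.76) in control livers, and slc16a6.1.2 had 1.105 to 9.03 CPM (median 3.28) in gold-fed and 1.06 to 3.04 CPM (median 1.71) in control livers. In each case at least 1 control liver lay within the gold-fed range. The log2 fold changes were 0.92, 0.70 and 1.05, with adjusted p of 0.463, 0.524 and 0.545, for these 3. Without gold-fed eel 11 the value of slc16a6.1.2 was 0.61.

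On the lower side, slc25a26, the mitochondrial carrier of S-adenosylmethionine, had 0.984 to 2.76 CPM (median 1.63) in gold-fed and 1.90 to 5.19 CPM (median 2.81) in control livers. The taurine carrier slc6a6.2.2 had 58.96 to 74.1 CPM (median 61.5) in gold-fed and 70.9 to 119.6 CPM (median 78.3) in control livers, with 1 gold-fed liver inside the control range. Log2 fold changes were -0.87 ± 0.31 for slc25a26 and -0.46 ± 0.17 (SE) for slc6a6.2.2, both with an adjusted p of 0.49. Next in order of p were slc16a7 (-0.54), slc7a4 (-1.12), a cationic amino acid carrier relative, and slc25a28.3.4 (-0.40), a second mitoferrin, with adjusted p of 0.567, 0.675 and 0.681. Of these, slc7a4 and slc25a28.3.4 did not reach an unadjusted p under 0.05. The label slc25a28 has 5 contigs, and they did not all lie lower in gold-fed livers. The value of slc7a4 was -1.78 without gold-fed eel 7 and -0.63 without control eel 5.

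By role group the median log2 fold change in liver ranged from -0.09 for vitamin, folate, haem and peptide carriers (4 of 12 above 0) to 0.24 for carboxylate carriers (8 of 11 above 0). The sugar group, slc5a6a included, had 11 of 12 above 0 with a median of 0.21, and the 6 slc2 contigs tested were all above 0. The sugar group was singled out after its values were seen. In it slc2a5 had 75.4 to 160.0 CPM (median 108) in gold-fed and 55.6 to 96.4 CPM (median 87.1) in control livers, and slc37a4.2.2 had 650.5 to 1058 CPM (median 789) in gold-fed and 428 to 709 CPM (median 619) in control livers. Both pairs of groups overlap, and the log2 fold changes were 0.51 (adjusted p 0.551) and 0.41 (adjusted p 0.574). Marker contigs of other cells moved beside these values: leukocyte contigs summed to 130 to 249 CPM in gold-fed livers and 189 to 275 CPM in control livers, with 14 of 15 below 0 and a median log2 fold change of -0.78. Erythrocyte contigs had 5 of 5 below 0 with a median of -0.56, at 395 to 2309 CPM in gold-fed and 1031 to 4302 CPM in control livers. Biliary and intestinal epithelium contigs had 3 of 4 above 0 with a median of 0.53, at 63.2 to 130.3 CPM in gold-fed and 32.2 to 116 CPM in control livers. Endothelium contigs had 5 of 7 below 0 with a median of -0.16, at 52.1 to 78.5 CPM in gold-fed and 57.7 to 81.7 CPM in control livers. No marker contig of these lists was called or at 0 in all libraries of a group, and their part in the carrier values was not tested. The 40 hepatocyte contigs had a median log2 fold change of -0.01.

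**Figure D4:**
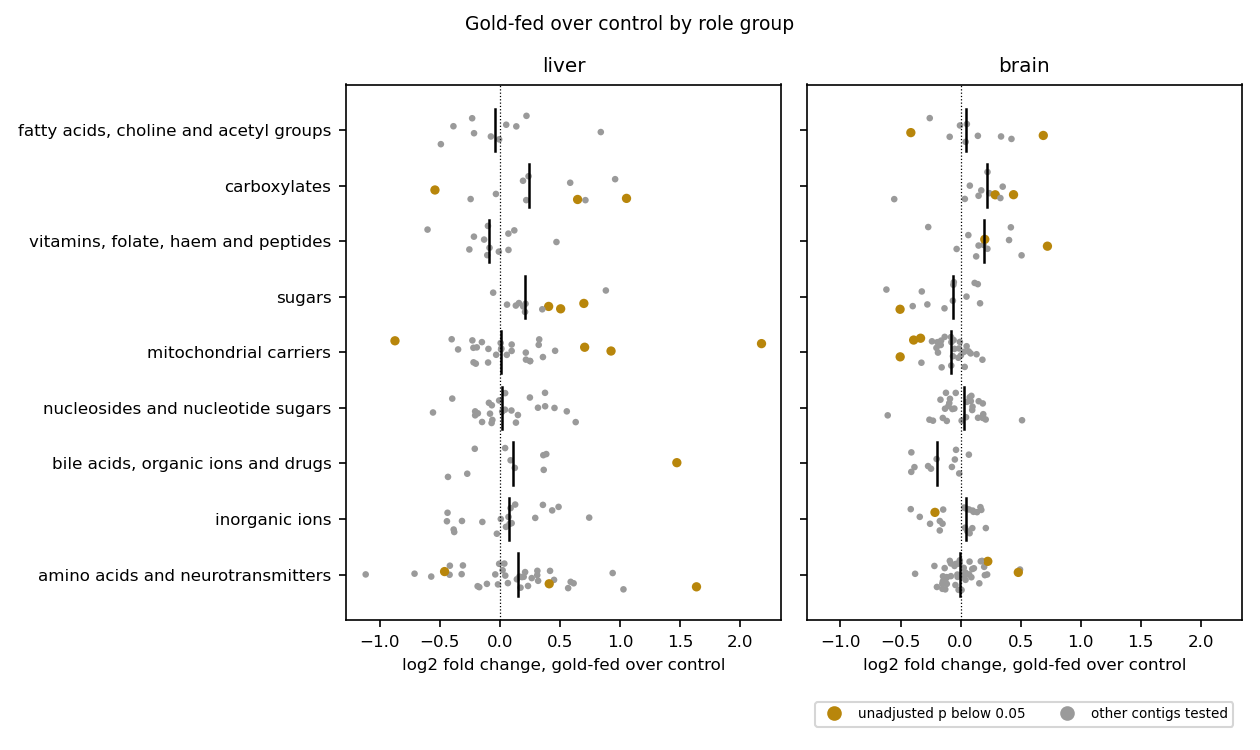
Log2 fold change of gold-fed over control (x axis) in liver (left, 166 contigs) and brain (right, 182 contigs), one point per contig by role group, with medians as black bars and contigs at an unadjusted p under 0.05 in gold. No contig passed the adjusted test in either tissue, and the spread around 0 is wider in liver than in brain.

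In brain all 182 carriers were tested and 0 were called by edgeR (smallest adjusted p 0.579), against 0.00201% of all 49830 contigs. At an unadjusted p under 0.05, 7 were higher and 6 lower in gold-fed brains, against 3.37% and 4.39% of all contigs. The carriers had 48.9% above 0 and a median of -0.01, against 50.04% and 0.00 for all contigs. limma-voom called 0 carriers, and DESeq2 called 0 carriers and 0.357% of all contigs, and 0 carriers were without overlap between the groups, against 0.508% of all contigs.

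Smallest p in brain belonged to the taurine carrier slc6a6.2.2, with 138 to 169.7 CPM (median 164) in gold-fed and 119 to 149.7 CPM (median 134) in control brains. The lactate carrier slc16a3 had 57.7 to 79.3 CPM (median 68.4) in gold-fed and 47.1 to 60.9 CPM (median 56.6) in control brains. Both were higher on average in gold-fed brains with overlapping groups, at log2 fold changes of 0.23 ± 0.07 and 0.29 ± 0.09 (SE) and adjusted p of 0.579 and 0.596. The lysosomal peptide carrier contig slc15a4.2.2 had 0.601 to 1.89 CPM (median 1.41) in gold-fed and 0.444 to 1.04 CPM (median 0.892) in control brains, also overlapping. The others named on the higher side were slc16a9.2.3 (0.44) and slc27a2.2.3 (0.69), and the value of slc27a2.2.3 was 0.36 without the brain of gold-fed eel 10.

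Lower in gold-fed brains, without passing the test, were the glucose carrier slc2a12, with 0.445 to 0.79 CPM (median 0.613) in gold-fed and 0.592 to 1.04 CPM (median 0.839) in control brains, and slc25a47.2.2, with 3.06 to 4.75 CPM (median 3.76) in gold-fed and 3.91 to 5.89 CPM (median 4.93) in control brains. The fatty acid carrier slc27a1 had 2.22 to 4.52 CPM (median 3.198) in gold-fed and 3.61 to 5.47 CPM (median 4.41) in control brains. All 3 pairs of groups overlap, and log2 fold changes were -0.50, -0.39 and -0.41, with adjusted p of 0.596, 0.6 and 0.62. The S-adenosylmethionine carrier slc25a26 had a log2 fold change of -0.33. By role, mitochondrial carriers had 8 of 29 above 0 (median -0.08), bile acid, organic ion and drug carriers 1 of 11 (median -0.20), carboxylate carriers 10 of 11 (median 0.22) and vitamin, folate, haem and peptide carriers 10 of 12 (median 0.20). These 4 groups were singled out after their values were seen, and the contigs of a group share the same 12 brains. Leukocyte contigs summed to 46.7 to 232 CPM in gold-fed and 65.3 to 160.4 CPM in control brains, with 15 of 15 above 0 and a median of 0.47. Astroglia and radial glia contigs had 6 of 6 below 0 with a median of -0.20, at 249.7 to 329.9 CPM in gold-fed and 272 to 385 CPM in control brains. Endothelium contigs had 6 of 7 below 0 (median -0.10), erythrocyte contigs 5 of 5 (median -0.21), choroid plexus and ependyma contigs 3 of 3 (median -0.31) and myelin contigs 1 of 2 (median -0.12). Neuron contigs had 17 of 28 above 0 with a median of 0.03, at 2617 to 2862 CPM in gold-fed and 2457 to 2658 CPM in control brains. In all of these lists the summed levels of gold-fed and control brains overlap and no contig was called, and their part in the carrier values was not tested.

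**Figure D5:**
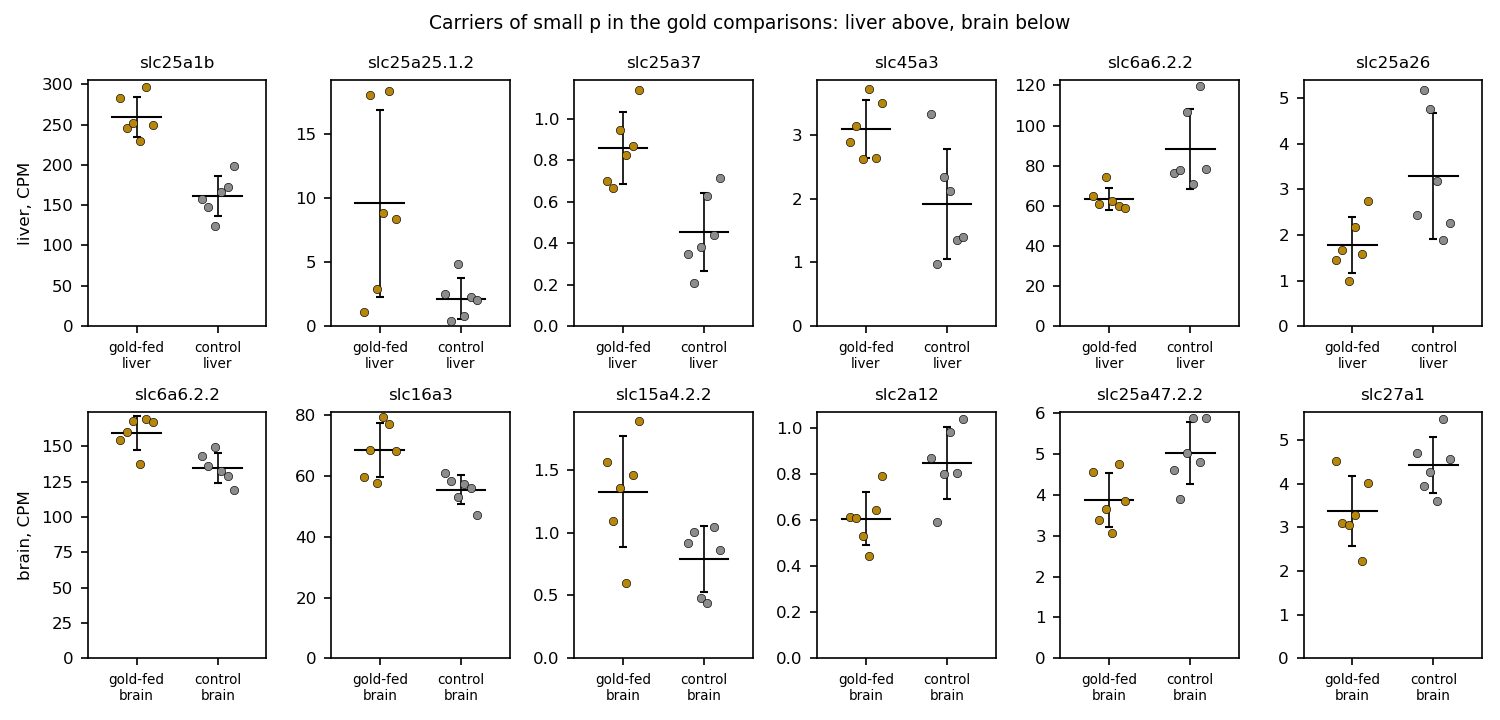
CPM by library (y axis, linear from 0) for 6 contigs in liver (upper row) and 6 in brain (lower row), gold-fed left and control right, 6 eels each; lines and bars are mean ± SD. Of the 12 panels only slc25a1b in liver has groups that do not overlap, at 229.96 to 297 CPM in gold-fed and 124 to 198 CPM in control livers.

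An interaction term tested whether the response to gold differed between the tissues. A difference was called for 0 carriers by edgeR (smallest adjusted p 0.254; 0.00595% of all 50455 contigs called), and an unadjusted p under 0.05 was met by 10 carriers with a higher and 3 with a lower response in liver, against 3.27% and 3.5% of all contigs. limma-voom called 0 carriers, and DESeq2 called 2, slc25a1b and slc6a6.2.2, and 0.27% of all contigs. For slc25a1b the difference was 0.81 ± 0.19 (SE) on the log2 scale, beside separate fits of 0.71 in liver and -0.13 in brain, with an adjusted p of 0.254 by edgeR and 0.0143 by DESeq2. For slc6a6.2.2 it was -0.72 ± 0.17 (SE), beside -0.46 in liver and 0.23 in brain, with an adjusted p of 0.279 by edgeR and 0.0147 by DESeq2. The other contig of the taurine label, slc6a6.1.2, had -0.19 in liver and -0.12 in brain.

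Other contigs of small p in this comparison were slc25a25.1.2, with a difference of 2.31 ± 0.71 (SE, adjusted p 0.431), slc35g2.2.2 with -0.97 and slc35c1.1.2, a GDP-fucose carrier, with -0.62, which was -0.40 without control eel 6. The contig slc35g2.2.2 had 2 to 11 reads in gold-fed and 6 to 14 in control livers, so its difference rests on low counts. The orphan member slc35f4 also entered by its p, but had 0 to 0.118 CPM (median 0.0801) in gold-fed livers and reads in 1 of 6 control livers, so its difference depends on the prior count of the fit and no value is given.

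Solute carriers labelled by protein entry names, which the rule does not reach, gave a related list of 27 contigs under 15 labels. Of these 16 were higher in liver, 5 higher in brain and 6 without a call in both sets, against 30.8% of all contigs higher in liver and 36.7% higher in brain. These calls used TMM scaling only and were not repeated with library totals, so liver calls of small difference may rest on the scaling. None was called between gold-fed and control eels in either tissue. At an unadjusted p under 0.05, 4.41% of all contigs were higher and 4.0% lower in gold-fed liver, and 3.37% and 4.39% in gold-fed brain. In the related list 7 contigs in liver and 4 in brain met that p, and some of them share a label. Both contigs of UCP2, a mitochondrial carrier of the slc25 family known as an uncoupling protein, were among them in both tissues. UCP2.1.2 had 19.03 to 63.7 CPM (median 28.96) in gold-fed and 8.18 to 21.8 CPM (median 17.4) in control livers, and 16.5 to 23.99 CPM (median 19.03) in gold-fed and 12.5 to 16.7 CPM (median 15.7) in control brains. The brain groups of UCP2.1.2 overlap by a small margin and its liver groups overlap too, with log2 fold changes of 1.01 in liver (adjusted p 0.455) and 0.37 in brain (adjusted p 0.596). UCP2.2.2 had 1.17 in liver and 0.56 in brain.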

How the data were processed

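Liver and brain RNA libraries of 12 eels (24 libraries, 6 per group) were used. The authors deposited 1 table of read counts per contig; the labels' protocols name a TruSeq RNA v2 kit, and the submitters' processing notes name BWA 0.7.12 and SAMtools 1.1. No build is given in the sources used here, and the counts are not corrected for contig length. Depths stand in the report, and no 2 libraries agreed within sampling noise.

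Members and lists were chosen with earlier results of these data known. Of 129 labels, 73 match a symbol in the RefSeq table of the fAngAng1.pri assembly. Counts were tested in R 4.3.3 with edgeR 4.0.16: TMM scaling, filterByExpr, the quasi-likelihood test, and Benjamini-Hochberg adjustment over all contigs at 0.05, separately for each tissue comparison within gold-fed and control eels and for each gold comparison within a tissue, plus 1 interaction fit of all libraries. SE is the absolute log2 fold change divided by the root of F. Printed CPM use TMM factors over all 24 libraries. DESeq2 1.42.0, limma-voom (limma 3.58.1), other scalings and filters, sums by label, an eel block and leaving out each library or each eel were alternatives. The tests were first tested on simulated data. P-values measure the spread between these eels; tanks were not given.

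With a few exceptions that are not reported here, named contigs were the 12 largest tissue differences per direction with at least 5 CPM, the contig with most reads per role, the 5 smallest p per direction and tissue for gold (3 for the interaction), labels with contigs called in opposite directions, 27 well-known carriers, of which 11 have a contig analysed here, and the 5 most variable contigs per control tissue. Eel numbers pair the tissues: the labels name the same individuals, and the same-eel correlation of deviations from the group means was 0.291 to 0.539 over the 12 eels. Livers and brains of different eels were not correlated, so this range has no yardstick and does not test the pairing.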

Additional observations from a re-analysis of the deposited data

Results flagged for a closer look

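Of 300 groups of 6 libraries, those of the named contigs, 21 held a library far from the others, where chance flags about 1 in 20. The named contigs include the 5 most variable of each control tissue, such as slc27a6 and slc12a4. For contigs chosen by their spread that rate is no fair yardstick. Each value below is the CPM of that library. In gold-fed livers these were slc27a2.3.3 in eel 8 at 77.2 (others 40.8 to 53.7), slc7a4 in eel 7 at 5.01 (others 0.451 to 1.95), slc2a12 in eel 11 at 12.5 (others 2.37 to 4.499), slc1a4.2.2 in eel 9 at 3.69 (others 0.383 to 0.862) and slc35d1.3.4 in eel 10 at 0.443 (others 0.0269 to 0.133). In control livers they were slc6a11 in eel 6 at 4.45, slc35f4 in eel 3 at 0.0586 with the other 5 at 0 reads, slc27a6 in eel 3 at 339 (others 20.3 to 117) and slc6a5.1.2 in eel 3 at 1.23 (others 0.295 to 0.477).

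In gold-fed brains, eel 10 stood apart for 4 contigs. It was high for the fatty acid carrier contigs slc27a2.3.3 at 0.464 and slc27a2.2.3 at 4.88 (others 1.34 to 2.50) and for slc25a39.1.2 at 54.98 (others 14.2 to 23.6), and low for slc25a1b at 4.45 (others 6.06 to 6.94). The choroid plexus and ependyma contigs summed to 87.8 CPM in that brain, and their part in these values was not tested. The other gold-fed brains were eel 7 for slc12a5.1.2 at 233 (others 123 to 134) and eel 11 for slc28a3 at 0.0893.

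In control brains, eel 1 was high for slc13a2 at 0.376, slc4a10 at 40.2 (others 22.3 to 28.5) and slc38a10.2.6 at 4.94 (others 3.33 to 3.72). Eel 3 was high for slc12a4 at 9.36, eel 4 for slc2a5 at 0.429 and eel 5 for slc28a3 at 0.382 (others 0.124 to 0.195).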

How the results depend on the processing

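The tissue counts depended on the scaling. With library totals, 44 carriers were higher in liver and 121 higher in brain in gold-fed eels, and 40 were higher in liver and 126 higher in brain in control eels; in both sets 39 were higher in liver and 119 higher in brain. The 39 called under both scalings, an alternative chosen after seeing the data, were set beside 81 with TMM. Summed by label, which gives fewer features, 50 were higher in brain in gold-fed eels, 50 in control eels and 47 in both. Other scalings, filters and tools kept every tissue count within 1.5 times. With library totals the log2 fold change was -0.17 for slc9a3r1 in gold-fed eels, and in gold-fed and control eels it was -1.25 and -1.07 for slc25a39.1.2, -0.23 and -0.093 for slc48a1.1.2, -1.18 and -1.80 for slc38a10.1.6, -0.78 and -1.32 for slc38a10.3.6, and -1.59 and -2.11 for slc38a10.5.6. In control eels slc38a10.5.6, near 0 at 0.03, was -0.0277 by DESeq2 and -0.032 with DESeq2 size factors, and -0.10 to 0.16 with each eel left out. For gold in liver DESeq2 called 1 carrier and the fit of all 24 libraries 1, and for the difference of responses DESeq2 called 2; the cause was not tested. With each library left out, calls numbered 0 to 0 for gold in liver and gold in brain. The same held for the difference of responses with each eel left out. Leaving out each eel gave 77 to 83 higher in liver and 74 to 77 higher in brain in gold-fed eels, and 80 to 83 and 74 to 77 in control eels. With the eel as a replicate block, 84 were higher in liver and 79 higher in brain in gold-fed eels, 83 and 79 in control eels, 80 and 76 in both sets, and the difference of responses had 0 calls; of the named contigs' 2001 alternative values, 1956 kept direction and side of the threshold, 17 lost the call, 12 gained it and 16 changed sign. Low counts in liver limit several brain-higher contigs, among them slc35f4, slc6a5.2.2, slc6a15.1.2, slc29a4.2.2, slc35g2.1.2 and slc35g2.2.2. Contig lengths were not used here.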

Other observations

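Among the solute carriers labelled by protein entry names, the 4 contigs labelled S2548, of the mitochondrial carrier family, all had log2 fold changes below 0 in gold-fed against control livers, from -1.45 to -0.44, and none passed the test. The contig S2548.4.4 had 2.10 to 23.7 CPM (median 13.4) in gold-fed livers and 5.66 to 47.1 CPM (median 31.7) in control livers, and an adjusted p of 0.592 by edgeR. The groups overlap, and contigs of a label can share reads.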
